A study of Rattus norvegicus with 24 samples.

Results

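The genes described here are 5 components of corticosteroid signalling that were followed in lung and liver of neonatal rats after repeated steroid injections. They are the glucocorticoid receptor gene Nr3c1 (ENSRNOG00000014096), the mineralocorticoid receptor gene Nr3c2 (ENSRNOG00000034007), the 11-beta-hydroxysteroid dehydrogenase genes Hsd11b1 (ENSRNOG00000005861) and Hsd11b2 (ENSRNOG00000017084), and Fkbp5 (ENSRNOG00000022523), which encodes a cochaperone of steroid receptors. They were picked out by identifier, and they are 5 of the 30560 gene rows in the count files. All pups were wild-type Sprague Dawley rats nursed by their mothers. Subcutaneous injections began on postnatal day 1 and were given once daily, 5 in all, and both tissues were frozen on postnatal day 6, 24 hours after the last one. Vehicle pups received 2.5% ethanol, and the other pups received either 0.1 mg/kg of dexamethasone or 1.25 mg/kg of desisobutyryl ciclesonide. Each of the 3 treatments was sequenced in 4 lung and 4 liver libraries, so there were 6 groups and 24 libraries of polyadenylated RNA. The labels do not give the sex or litter of a pup, so the p-values measure the spread between these libraries.

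Corticosteroid action in a cell depends on the hormone that reaches the receptors and on the receptors themselves. In rodents the enzyme encoded by Hsd11b1, abundant in liver, mainly regenerates active corticosterone from its inert 11-keto form, and the enzyme encoded by Hsd11b2 carries out the opposite oxidation and is best known for keeping glucocorticoids away from the mineralocorticoid receptor in kidney. Bound receptors move to the nucleus and regulate genes such as Fkbp5, whose product joins the receptor's Hsp90 complex, lowers its affinity for hormone and so closes a short negative feedback loop. In late gestation and after birth, glucocorticoids drive maturation of the lung and of metabolic enzymes in liver. Dexamethasone is a potent synthetic steroid of this class. Desisobutyryl ciclesonide is what tissues make from ciclesonide, an inhaled glucocorticoid prodrug. The doses of the drugs differ, so every value that sets them side by side is for the groups as dosed.

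Counts assigned to genes ranged from 15839958 to 27881158 per lung library and from 15397992 to 26194384 per liver library. Levels are CPM, which are counts scaled to a common total after the TMM method had adjusted library sizes within a tissue. Libraries of desisobutyryl ciclesonide had 0.93% to 1.25% unaligned reads in lung, against 1.93% to 3.5% in the other lung libraries, and 0.801% to 1.4% against 1.88% to 3.32% in liver. Their files are also numbered in a series of their own, so library series and drug cannot be told apart in any comparison with desisobutyryl ciclesonide. Lung dexamethasone replicates 3 and 4 stood apart: 25 genes, picked out on these values and none of them among the 5, exceeded all other lung libraries by 4-fold or more, with sums of 1575 and 4758 CPM where no other lung library passed 68.2 CPM. Markers of lung, liver and other cells could not be looked up, because the files give identifiers without symbols, so the tissue labels were not checked against them.

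Dexamethasone raised Fkbp5 and Hsd11b1 in both tissues and lowered Hsd11b2 in lung, while neither receptor gene passed the test with either drug. In lung, 3 of the 5 genes were called with dexamethasone at an adjusted p under 0.05, where 55.6% of all genes tested were called. Desisobutyryl ciclesonide raised 2 of the 5 in lung, Fkbp5 and Hsd11b1, beside 24.1% of all genes. In liver, Hsd11b2 was too low for the expression filter, and 2 of the 4 genes tested were called with dexamethasone, beside 47.5% of all genes. With desisobutyryl ciclesonide in liver 0 of the 4 were called, beside 4.52% of all genes; edgeR, DESeq2 and limma-voom each called 0, and 0 had an unadjusted p under 0.05. The members' shares are close to the background or rest on too few genes to be set against it, so the results lie in the single genes.

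**Figure D1:**
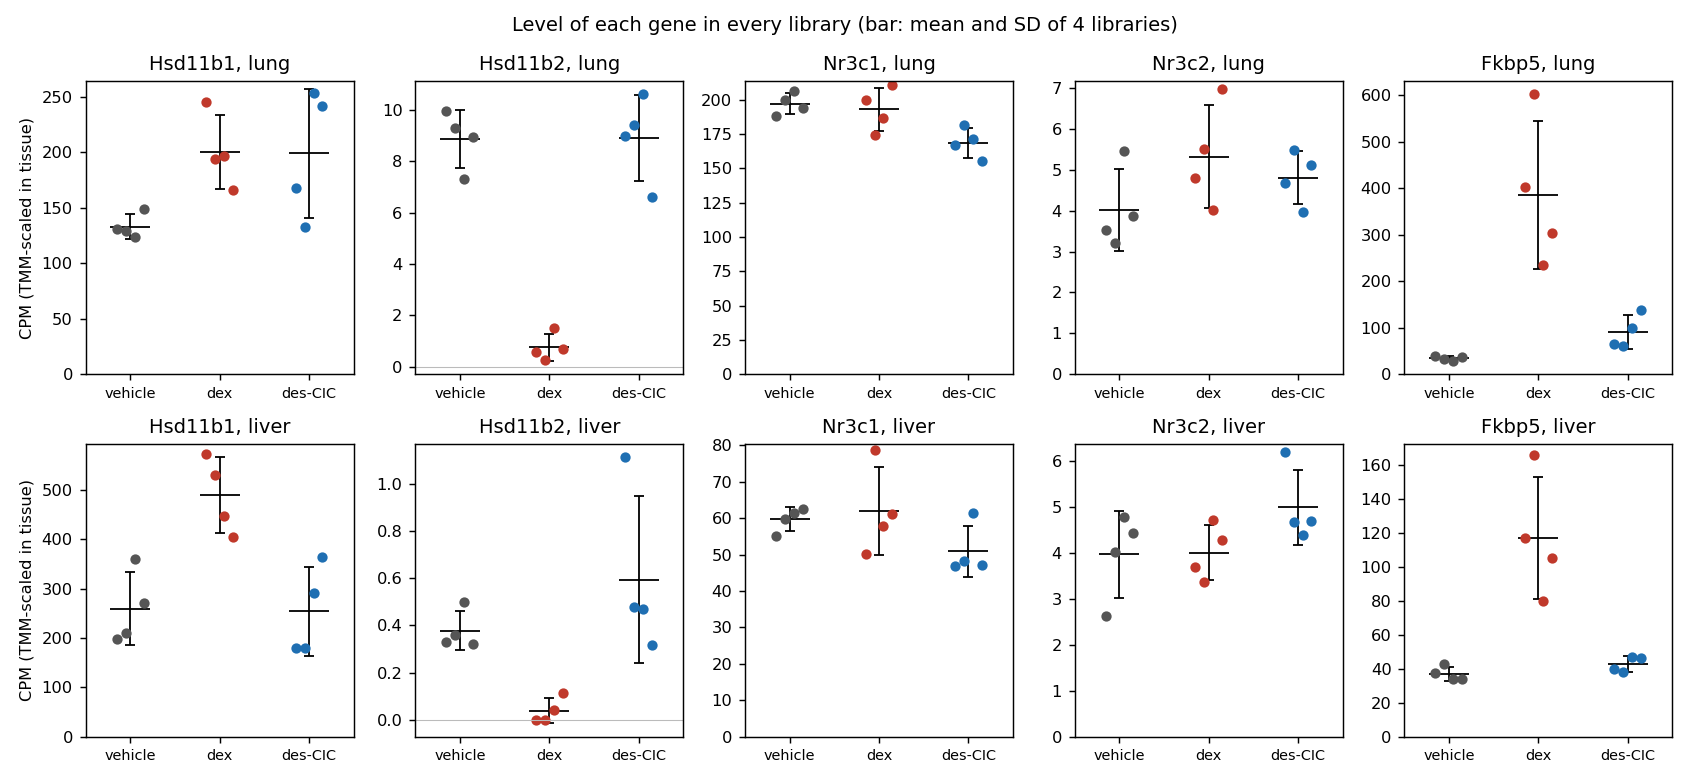
Level of each gene in CPM (y axis, starting at or just below 0) by treatment (x axis; dex is dexamethasone, des-CIC is desisobutyryl ciclesonide), with lung in the upper row and liver in the lower. Points are libraries, in order of replicate number within a group, and the bars show the mean and SD of 4 libraries. Fkbp5 in lung reached 234 to 602 CPM with dexamethasone, above the 28.8 to 39.97 CPM of vehicle, and Hsd11b2 in lung fell to 0.284 to 1.51 CPM.

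Hsd11b1, the regenerating enzyme, was higher with dexamethasone in both tissues. In lung it stood at 130.4, 129, 123 and 149 CPM in vehicle replicates 1 to 4 and at 245.5, 193, 196.5 and 166 CPM with dexamethasone. The groups did not overlap, and the log2 change was 0.59 (SE 0.18, adjusted p = 0.015), a 1.51-fold rise. Without dexamethasone replicate 1 the change was 0.48 and passed narrowly (adjusted p = 0.0486). In liver it stood at 198, 209.7, 359 and 270.5 CPM with vehicle and at 573, 531, 447.5 and 404.5 CPM with dexamethasone. Here too every dexamethasone library lay above every vehicle library, with a log2 change of 0.91 (SE 0.25, adjusted p = 0.00676), a 1.89-fold rise. The lung change less the liver change was -0.32 on the log2 scale (95% interval -1.003 to 0.36, adjusted p = 0.481), so the rises were not told apart at this precision. In bulk tissue, a change in RNA per cell and a change in the number of cells that express a gene cannot be told apart.

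With desisobutyryl ciclesonide, Hsd11b1 passed the test in lung by a small margin. The lung libraries held 168, 132, 254 and 242 CPM, so replicate 2 lay within the vehicle range and replicates 3 and 4 lay far above it. The log2 change was 0.58 (SE 0.18, adjusted p = 0.0368), nearly the size of the dexamethasone change. The direct difference between the drug groups in lung was -0.01 (95% interval -0.41 to 0.39, adjusted p = 0.968). The call was lost without vehicle replicate 1, 2 or 3 or without desisobutyryl ciclesonide replicate 3 or 4, one at a time (adjusted p from 0.0754 to 0.121), and with limma-voom (adjusted p = 0.0521). In liver the desisobutyryl ciclesonide libraries held 179.6, 179.8, 291 and 365 CPM, which reach below and above the vehicle range (log2 change -0.03, 95% interval -0.55 to 0.49, adjusted p = 0.962). Tested directly in liver, Hsd11b1 was lower with desisobutyryl ciclesonide than with dexamethasone by a log2 difference of -0.95 (SE 0.25, adjusted p = 0.00585), and 2 of the 4 genes tested in that comparison were called, beside 46.3% of all genes.

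Hsd11b2, the inactivating enzyme, fell steeply in lung with dexamethasone and not with desisobutyryl ciclesonide. In vehicle lung it stood at 9.95, 9.29, 7.30 and 8.96 CPM in replicates 1 to 4. With dexamethasone it stood at 0.564, 0.284, 1.51 and 0.683 CPM, from 5 to 36 counts a library against 143 to 218 with vehicle. The lowest vehicle library was thus well above the highest dexamethasone library, and the log2 change was -3.51 (SE 0.37, adjusted p = 4.27e-06), an 11.4-fold fall. By fold, it was the 226th largest fall among 16108 genes tested. Without dexamethasone replicates 3 and 4, which held the most Hsd11b2 of that group, the log2 change was -4.33 (adjusted p = 2.77e-06).

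Desisobutyryl ciclesonide left Hsd11b2 within the range of vehicle in lung for 2 of its 4 libraries, with 1 above and 1 below. The values were 8.97, 9.44, 10.6 and 6.63 CPM, and the log2 change was 0.01 (95% interval -0.68 to 0.69, adjusted p = 0.992). The direct difference between the drug groups was 3.52 on the log2 scale (SE 0.37, adjusted p = 1.06e-05), the 70th largest of 16108 genes in its direction. In that comparison 2 of the 5 genes were called, Hsd11b2 and Fkbp5, beside 49.5% of all genes.

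In liver Hsd11b2 was close to the limit of detection. Vehicle libraries held 6, 7, 9 and 6 counts, dexamethasone libraries 0, 0, 1 and 2, and desisobutyryl ciclesonide libraries 21, 9, 8 and 8. Every dexamethasone library was below every other liver library. The summed counts of 28 with vehicle and 3 with dexamethasone give an 8.57-fold lower level with dexamethasone (95% exact counting interval 2.65 to 44.1, which covers counting error only). Desisobutyryl ciclesonide stood at 1.53 times vehicle (interval 0.935 to 2.54), with 21 of its 46 counts from replicate 1. When genes of any count were tested, the liver change with dexamethasone had an adjusted p = 0.00893 and the change with desisobutyryl ciclesonide an adjusted p = 0.618.

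The ratio of Hsd11b1 to Hsd11b2 counts within a library does not depend on how libraries are scaled, and its change does not depend on gene length. It was 13.1, 13.9, 16.9 and 16.6 in the vehicle lung libraries, 435, 682, 130 and 243 with dexamethasone, and 18.7, 14.0, 23.9 and 36.4 with desisobutyryl ciclesonide. The dexamethasone libraries lay apart from all others in lung, and 3 of the 4 desisobutyryl ciclesonide libraries lay above the vehicle range. In liver the ratio ran from 580 to 845 with vehicle and from 162 to 1150 with desisobutyryl ciclesonide. With dexamethasone, liver replicates 3 and 4 gave 10100 and 3500 on 1 and 2 counts of Hsd11b2, and replicates 1 and 2 had no such count, which puts them at 2590 and 2630 or more against a floor of 3 counts a library. All of these values are descriptions with no test.

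**Figure D2:**
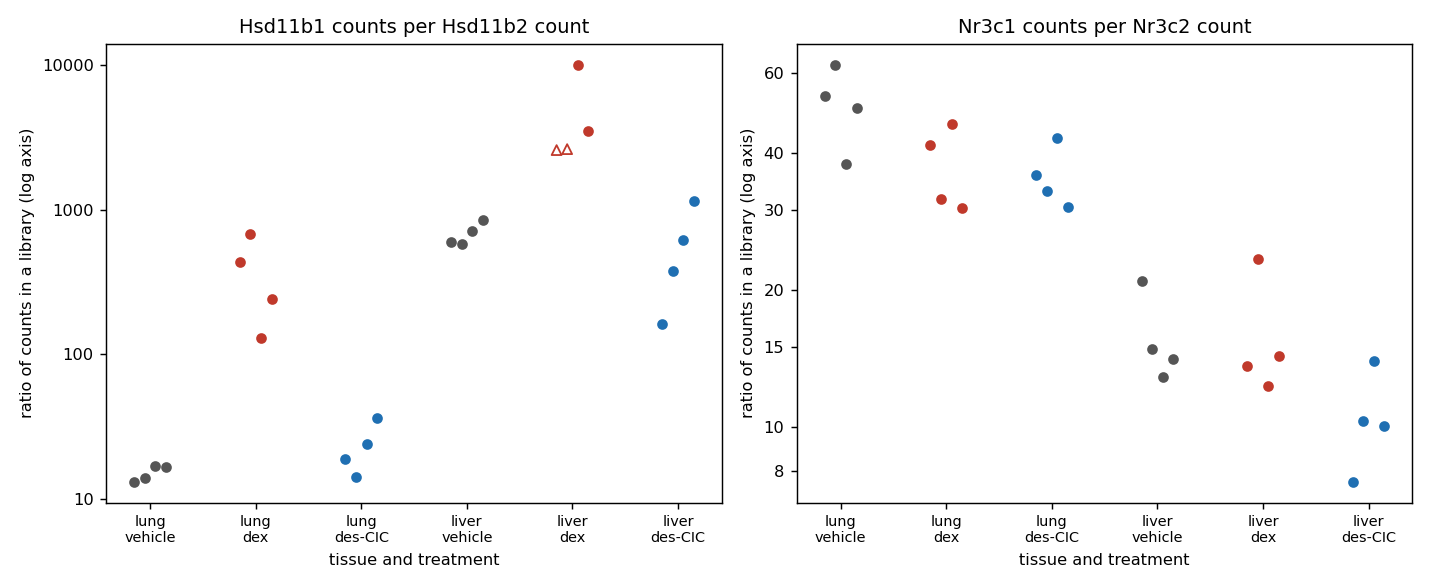
Counts of Hsd11b1 per count of Hsd11b2 (left) and of Nr3c1 per count of Nr3c2 (right) in each library, on log axes, by tissue and treatment (dex is dexamethasone, des-CIC is desisobutyryl ciclesonide). Points are libraries, and open triangles mark 2 liver dexamethasone libraries without an Hsd11b2 count, drawn at the lower bound of 2590 and 2630. Lung dexamethasone libraries at 130 to 682 stand above the other lung libraries at 13.1 to 36.4, and all lung libraries exceed all liver libraries in the right panel.

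Nr3c1, which encodes the receptor that both drugs target, changed little. In lung it stood at 188, 200.3, 206 and 194 CPM with vehicle and at 200.2, 175, 187 and 211 CPM with dexamethasone. These ranges overlap, and the log2 change was -0.03 (95% interval -0.21 to 0.15, adjusted p = 0.77). With desisobutyryl ciclesonide it stood at 167, 181.5, 171 and 155 CPM, so all 4 libraries were below all 4 vehicle libraries. The log2 change was -0.22 (95% interval -0.40 to -0.05), a 1.17-fold lower mean, and it missed the threshold (adjusted p = 0.0615). It passed with DESeq2 (adjusted p = 0.0358), in a fit of those groups alone (adjusted p = 0.0358) and without lung dexamethasone replicate 2 (adjusted p = 0.035). That replicate is in neither group compared: the log2 change stayed at -0.2249, and the SE fell from 0.0818 to 0.0721. The change also passed without scaling beyond library size (adjusted p = 0.0197), where the median of all genes moved down too, from -0.007 to -0.0998. The change stayed uncalled in 16 of 20 alternatives, and over all of them the adjusted p ran from 0.0197 to 0.172. The direct difference from dexamethasone was -0.19 (adjusted p = 0.0637), and without dexamethasone replicate 2 it was -0.24 (adjusted p = 0.0248). This difference stayed uncalled in 18 of 21 alternatives, with adjusted p from 0.0207 to 0.198 over all of them.

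In liver Nr3c1 stood at 55.2, 59.7, 61.5 and 62.4 CPM with vehicle, at 50.2, 78.7, 57.95 and 61.2 CPM with dexamethasone, and at 46.95, 48.2, 61.3 and 47.1 CPM with desisobutyryl ciclesonide. Dexamethasone libraries spread to either side of the vehicle range (log2 change 0.05, 95% interval -0.24 to 0.35, adjusted p = 0.769). Of the desisobutyryl ciclesonide libraries, 3 lay below every vehicle library and replicate 3 did not. The log2 change was -0.23 (95% interval -0.53 to 0.07, adjusted p = 0.363). The direct difference from dexamethasone in liver was -0.29 (adjusted p = 0.107). It stayed uncalled in 18 of 20 alternatives, with adjusted p from 0.0398 to 0.61 over all of them. It passed only without dexamethasone replicate 1 (-0.37, adjusted p = 0.0398) or without desisobutyryl ciclesonide replicate 3 (-0.38, adjusted p = 0.0462). The difference of the responses between tissues was -0.08 for dexamethasone (adjusted p = 0.729) and 0.01 for desisobutyryl ciclesonide (adjusted p = 0.991).

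Nr3c2, the receptor gene for aldosterone and, where Hsd11b2 is absent, also for corticosterone, had few counts in every group. Libraries held 64 to 194 counts in lung and 48 to 118 in liver. In lung the values were 3.53, 3.21, 5.46 and 3.86 CPM with vehicle, 4.80, 5.502, 4.02 and 6.97 CPM with dexamethasone, and 4.67, 5.49, 3.97 and 5.11 CPM with desisobutyryl ciclesonide. All 3 groups overlapped. The log2 change was 0.41 with dexamethasone (95% interval -0.09 to 0.91, adjusted p = 0.15) and 0.26 with desisobutyryl ciclesonide (95% interval -0.24 to 0.76, adjusted p = 0.446). Without vehicle replicate 3, the highest of its group, the dexamethasone change was 0.59 and passed (adjusted p = 0.0491). It stayed uncalled in 20 of 21 alternatives. Without dexamethasone replicate 4, the highest of that group, it was 0.27 (adjusted p = 0.367). In liver the values ran from 2.63 to 4.78 CPM with vehicle, from 3.36 to 4.71 CPM with dexamethasone and from 4.39 to 6.19 CPM with desisobutyryl ciclesonide. The groups overlapped there too, with log2 changes of 0.02 (95% interval -0.46 to 0.50, adjusted p = 0.953) and 0.33 (95% interval -0.15 to 0.81, adjusted p = 0.424).

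Fkbp5, the receptor cochaperone and target gene, showed the largest rises among the 5. In lung it stood at 39.97, 32.95, 28.8 and 36.9 CPM with vehicle and at 403, 602, 234 and 303 CPM with dexamethasone. The groups were far apart, and the log2 change was 3.47 (SE 0.34, adjusted p = 6.13e-06), an 11.1-fold rise that ranked 197th among 16108 genes by fold. Without dexamethasone replicates 3 and 4, the libraries that stood apart and the lowest of their group for Fkbp5, it was 3.87 (adjusted p = 7.24e-06). With desisobutyryl ciclesonide lung Fkbp5 stood at 65.1, 60.3, 99.4 and 139 CPM. These libraries lay above every vehicle library and below every dexamethasone library. The log2 change was 1.39 (SE 0.32, adjusted p = 0.00926), a 2.62-fold rise, and the direct difference from dexamethasone was -2.09 (SE 0.32, adjusted p = 0.000285).

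In liver Fkbp5 rose with dexamethasone and was not called with desisobutyryl ciclesonide. It stood at 37.8, 42.9, 33.99 and 33.9 CPM with vehicle, at 117, 166, 80.2 and 105 CPM with dexamethasone, and at 39.7, 37.98, 47.0 and 46.3 CPM with desisobutyryl ciclesonide. The dexamethasone libraries did not overlap either other group, and the log2 change was 1.66 (SE 0.18, adjusted p = 6.51e-06), a 3.15-fold rise. The desisobutyryl ciclesonide and vehicle libraries overlapped, with a log2 change of 0.20 (95% interval -0.18 to 0.59, adjusted p = 0.555). The direct difference between the drug groups was -1.45 (SE 0.18, adjusted p = 2.15e-05).

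The response of Fkbp5 was larger in lung than in liver with dexamethasone. The lung change exceeded the liver change by 1.82 on the log2 scale (SE 0.37, adjusted p = 0.000651), and Fkbp5 was the 1 of 4 genes tested that was called in this comparison, beside 34.7% of all genes. For desisobutyryl ciclesonide the excess in lung was 1.19 (SE 0.37) and missed the threshold (adjusted p = 0.073). There 0 of 4 genes were called by edgeR, beside 4.31% of all genes, with 1 at an unadjusted p under 0.05, 1 called by DESeq2 and 0 by limma-voom. With each lung library paired as a block with the liver library of its treatment and number, the excess was 1.12 and passed (adjusted p = 0.00526). It stayed uncalled in 23 of 32 alternatives, and over all of them its adjusted p ran from 0.00526 to 0.138. Leaving out any 1 of lung dexamethasone replicates 2 and 3 or lung desisobutyryl ciclesonide replicates 1 and 2 also brought it past the threshold (adjusted p from 0.025 to 0.0346). The dexamethasone libraries are in none of the groups compared here and enter only through the filter, the scaling and the shared estimate of spread.

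**Figure D3:**
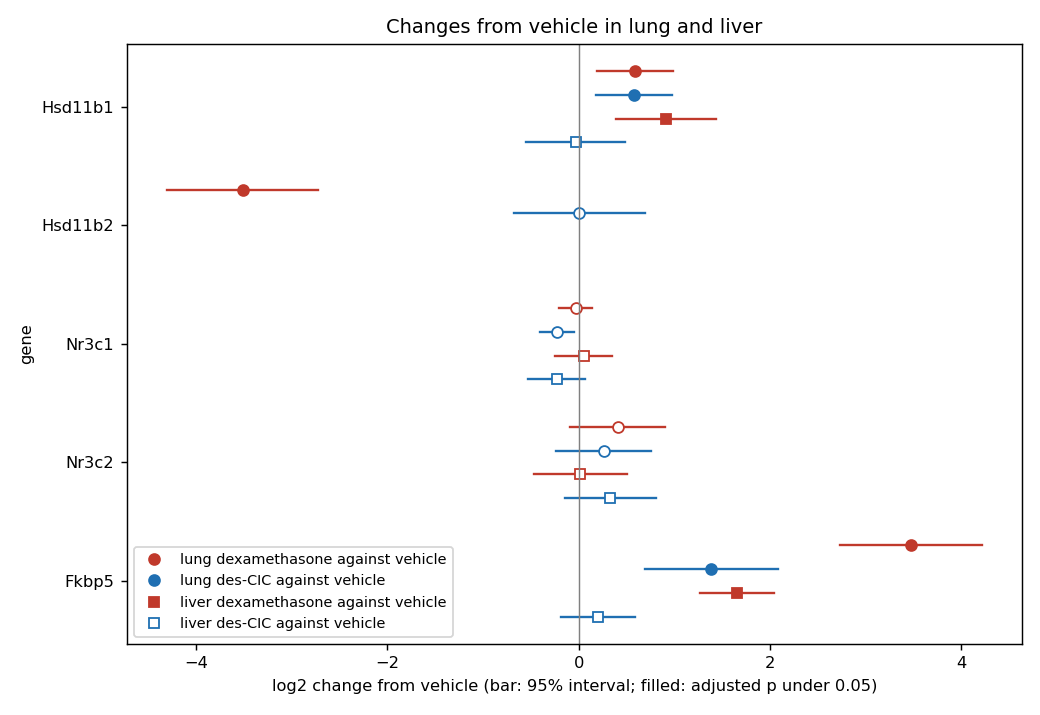
Change from vehicle on the log2 scale (x axis) for each gene (y axis) with dexamethasone or desisobutyryl ciclesonide (des-CIC) in lung (circles) and liver (squares). Bars are 95% intervals and filled symbols have an adjusted p under 0.05. Fkbp5 in lung (3.47) and Hsd11b2 in lung (-3.51) moved furthest with dexamethasone, the receptor genes stayed within 0.41 of 0, and Hsd11b2 was not tested in liver.

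The promoter of Fkbp5 is shown because Fkbp5 was the member raised most. RefSeq's promoter table for build GRCr8, a later build than the mRatBN7.2 of the counts, holds an entry for 2 of the 5 genes. The 250 bases before a RefSeq transcript start of Fkbp5 lie at chr20:6543556-6543805 on the minus strand. Capitals mark a CCAAT box, the only match to CCAAT or its complement ATTGG, which 34.0% of the 33469 promoter windows of this length hold on either strand.

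Fkbp5: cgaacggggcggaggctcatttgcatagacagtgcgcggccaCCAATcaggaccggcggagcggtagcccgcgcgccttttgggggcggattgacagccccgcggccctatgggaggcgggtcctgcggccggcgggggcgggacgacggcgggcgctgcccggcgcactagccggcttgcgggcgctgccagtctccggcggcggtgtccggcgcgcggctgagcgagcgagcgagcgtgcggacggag

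The window is 76.0% G and C, against a median of 51.2% over all windows. The core letters of a glucocorticoid response element, AGAACA or on the other strand TGTTCT, occur 0 times in it, and 17.5% of all windows hold them. Both cores 3 bases apart occur in 4 of the 33469 windows. These are matches of letters in 1 window and say nothing of receptor binding elsewhere at the gene.

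With dexamethasone, the libraries of lung and of liver fell in the same order for Fkbp5 in TMM-scaled CPM. As a share of the mean, the SD of Fkbp5 in lung was 14.0% with vehicle, 41.5% with dexamethasone and 40.1% with desisobutyryl ciclesonide, and in liver it was 11.4%, 30.8% and 10.7%. From high to low the order was replicate 2, 1, 4 and 3 in lung (602, 403, 303 and 234 CPM) and again 2, 1, 4 and 3 in liver (166, 117, 105 and 80.2 CPM). In liver, replicate 1 held 1587 Fkbp5 counts of 15397992 and replicate 4 held 1824 of 17624449. The order of those libraries rests on their TMM factors, 0.882 and 0.982. The titles number libraries within tissue and treatment without saying that a number marks a pup. Across 13245 genes, deviations from the group mean were positively correlated in 12 of 12 pairs of a lung and a liver library with equal treatment and number (Pearson r from 0.114 to 0.316 across genes, which are not independent). With desisobutyryl ciclesonide, replicates 3 and 4 held more Fkbp5 than replicates 1 and 2 in lung and in liver, and the same was so for Hsd11b1. With vehicle the order of Fkbp5 differed between the tissues.

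Within dexamethasone lung, Hsd11b2 ran in the opposite order to Fkbp5. Replicate 2 had the most Fkbp5 (602 CPM) and the least Hsd11b2 (0.284 CPM), followed by replicate 1 (0.564 CPM), replicate 4 (0.683 CPM) and replicate 3 (1.51 CPM). Among the desisobutyryl ciclesonide lung libraries, replicate 4 had the most Fkbp5 (139 CPM) and the least Hsd11b2 (6.63 CPM), but replicate 3, the next for Fkbp5, had the most Hsd11b2 (10.6 CPM). These orders rest on 4 libraries each and were not tested. Hsd11b2 in dexamethasone lung had 12, 5, 36 and 19 counts in replicates 1 to 4, too few to order replicates 1 and 4.

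**Figure D4:**
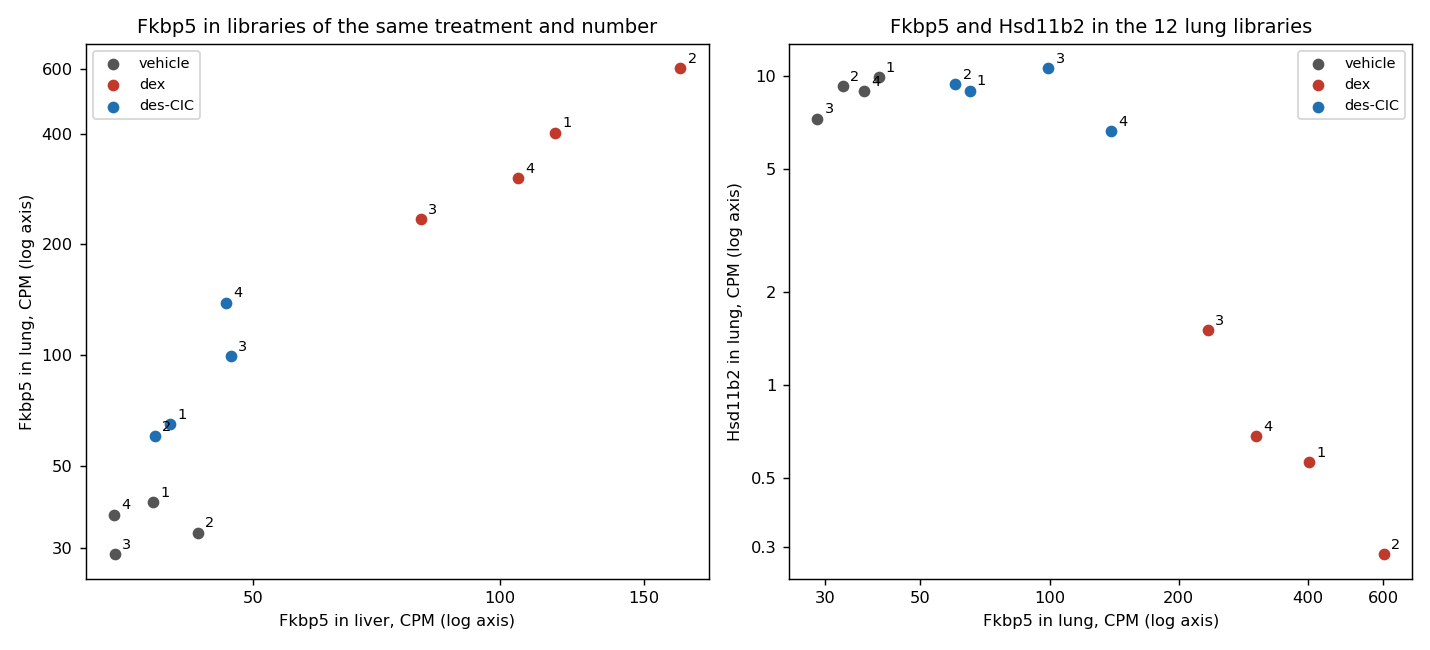
Fkbp5 in lung (y axis) against Fkbp5 in the liver library of the same treatment and number (x axis) on the left, and Hsd11b2 (y axis) against Fkbp5 (x axis) in the 12 lung libraries on the right, all in CPM on log axes. Points are libraries, numbered by replicate (dex is dexamethasone, des-CIC is desisobutyryl ciclesonide). The 4 dexamethasone points rise in the order 3, 4, 1 and 2 on the left. On the right their Hsd11b2 falls from 1.51 to 0.284 CPM in that order, on 36, 19, 12 and 5 counts, too few to order replicates 4 and 1.

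Without drug, the receptor and enzyme genes were balanced differently in lung and liver. Vehicle libraries held 37.8 to 62.5 counts of Nr3c1 per count of Nr3c2 in lung and 12.9 to 21.0 in liver, with no overlap. Over all treatments, lung libraries stayed at 30.2 or above and liver libraries at 23.4 or below, whatever the scaling. Within lung the drugs' ratios, 30.2 to 46.4 and 30.4 to 43.1, overlapped those of vehicle. All 5 genes were called between vehicle lung and vehicle liver, beside 74.3% of all genes, with log2 differences, lung less liver, of 0.36 for Nr3c1 (adjusted p = 0.00205), -1.35 for Nr3c2 (adjusted p = 0.000523), -2.33 for Hsd11b1 (adjusted p = 1.71e-07), 3.18 for Hsd11b2 (adjusted p = 4.7e-07) and -1.46 for Fkbp5 (adjusted p = 5.23e-07). The sizes depend on the scaling: with library size alone the median of all genes moved from 0.06 to 1.39, the differences for Nr3c2 (-0.01, adjusted p = 0.976) and Fkbp5 (-0.14, adjusted p = 0.353) were lost, and those of Nr3c1 (1.69), Hsd11b1 (-0.98) and Hsd11b2 (4.51) kept their sign. The order of levels across tissues is therefore given for the ratios alone.

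By group mean within a tissue, the order was dexamethasone, desisobutyryl ciclesonide, vehicle for Fkbp5 in lung, where no neighbours overlapped, and the same in liver, where the last 2 overlapped. For Hsd11b1 in lung the drugs' means were 200.3 ± 33.1 and 199 ± 58.3 CPM (SD, n = 4), over 133 ± 11.1 CPM with vehicle. For Hsd11b2 in lung, desisobutyryl ciclesonide (8.91 ± 1.67 CPM) and vehicle (8.87 ± 1.13 CPM) were within their spread, over 0.760 ± 0.526 CPM with dexamethasone. The receptor genes had no neighbours that passed the test in either tissue. Levels of different genes are not compared, since no transcript lengths were at hand.

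The genes whose pattern over the 12 libraries of a tissue was most like that of Fkbp5 or Nr3c1 are known here by identifier alone. For Fkbp5 the nearest was ENSRNOG00000007390 in lung (Pearson r = 0.995 of log2 CPM, among 13625 genes), at 66.6 ± 8.31 CPM with vehicle, 524 ± 213.5 CPM with dexamethasone and 144 ± 29.6 CPM with desisobutyryl ciclesonide (SD, n = 4). In liver the nearest to Fkbp5 was ENSRNOG00000017905 (r = 0.985 among 11398 genes), at 31.1 ± 1.07, 195 ± 93.7 and 37.4 ± 8.09 CPM in the same order. For Nr3c1 the nearest were ENSRNOG00000020340 in lung (r = 0.927) and ENSRNOG00000005234 in liver (r = 0.932). The 12 libraries share their treatments, so these values describe likeness in these libraries and no more.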

How the data were processed

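RNA was sequenced from 24 lung and liver samples. Raw counts for each Ensembl gene were deposited, made by the authors with cutadapt, HISAT2 and HTSeq on build mRatBN7.2, per the submitters' processing notes; versions, annotation release and strand setting are not given in the sources used here, so reads of overlapping or antisense genes may be shared. The 5 summary rows for unassigned reads (16.8% to 31.8% of entries) were left out of library sizes and tests. Samples were grouped by tissue, treatment and number in their titles.

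Counts were analysed in R 4.3.3 with edgeR 4.0.16: default expression filter (minimum count 10), TMM scaling, robust quasi-likelihood fit and F-test, Benjamini-Hochberg adjustment over all genes tested, and calls at 0.05. Each tissue's 12 libraries were fitted with 1 mean per treatment, the tissues were compared in the 8 vehicle libraries, and the difference in response in all 24 libraries over genes passing the filter in each tissue. Adjusted p-values come from these fits unless another tool is named. SE is the log2 change divided by the square root of F, and 95% intervals use the t distribution. The script was tested on simulated data. Alternatives were RLE, upper-quartile and library-size scaling, no filter, DESeq2 1.42.0, limma-voom (limma 3.58.1), each library left out, only the groups compared, lung dexamethasone replicates 3 and 4 left out, and replicate blocks. For the block across tissues, numbers were taken to pair lung with liver libraries, which the labels do not state. All 12 correlations of deviations exceeded 0.1. Among the liver libraries of its treatment, the one with its own number was nearest for 12 of 12 lung libraries. The main fits had no such block and treated lung and liver libraries as independent. All 36 replicate pairs differed beyond sampling noise (lowest chi-square over its degrees of freedom 11.6).

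The 5 genes were named in every comparison, and the gene nearest in pattern to Fkbp5 and to Nr3c1 was the one of highest Pearson r among genes with a mean of at least 2 CPM. Members and lists were chosen with earlier results of these data known. Planned lists of receptor chaperones, coregulators, other target genes and tissue markers could not be run, since no source pairs the identifiers with symbols; symbols of the 5 genes come with the choice of members. Ratios are described without a test. Hsd11b2 in liver, below the filter, is described by counts with exact counting intervals, and was tested only in the fit without the filter.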

Additional observations from a re-analysis of the deposited data

Results flagged for a closer look

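Fkbp5 responded differently to dexamethasone in lung and liver: the log2 change in lung exceeded that in liver by 1.82 in the test of the difference itself (edgeR, adjusted p = 0.000651). In each tissue all 4 dexamethasone libraries lay above all 4 vehicle libraries.

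A library far from the other 3 of its group was found in 2 of the 30 combinations of gene and group; by chance about 1 in 20 groups is marked. Nr3c1 in liver desisobutyryl ciclesonide replicate 3 stood at 61.3 CPM, against 46.95 to 48.2 CPM in the others, a gap of 0.915 of the group's range. Nr3c2 in liver desisobutyryl ciclesonide replicate 1 stood at 6.19 CPM, against 4.39 to 4.69 CPM in the others, a gap of 0.835 of the range. The gaps were taken on TMM-scaled CPM, with factors from 0.96 to 1.09 in this group. Their size depends on that scaling, and no other scaling was tried for them.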

How the results depend on the processing

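Of 886 member values under alternatives, 814 kept their direction and side of the threshold, 10 lost a call, 19 gained one and 43, from 9 results, changed sign; of those 43, 0 were called before or after. Where the cause is not in the alternative's construction, the cause was not tested. Every call on Fkbp5 and Hsd11b2 within a tissue held under each alternative run, as did the dexamethasone calls on Hsd11b1.

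With library size alone, the vehicle lung and liver differences of Nr3c2 (-0.008563) and Fkbp5 (-0.1359) and the lung Hsd11b1 change with desisobutyryl ciclesonide (0.4844) lost their calls; the Nr3c1 change in lung (-0.3178) and the lung excess of Fkbp5 (1.173) with that drug gained one. That Hsd11b1 change was also lost with limma-voom (0.5352). The Nr3c1 change in lung gained a call with DESeq2 (-0.209) and with only those groups (-0.2129), and its difference from dexamethasone with RLE scaling (-0.2084) and DESeq2 (-0.2083). The lung excess of Fkbp5 with desisobutyryl ciclesonide gained one with upper-quartile scaling (1.224), DESeq2 (1.227) and without lung dexamethasone replicates 3 and 4 together (1.262). Those replicates are in none of the groups that it compares.

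With 1 library left out, values ran from 0.4417 to 0.7331 for Hsd11b1 and from -0.2614 to -0.1867 for Nr3c1 with desisobutyryl ciclesonide in lung, from 0.2663 to 0.593 for Nr3c2 with dexamethasone in lung, from -0.2385 to -0.1542 in lung and -0.3755 to -0.146 in liver for Nr3c1 between the drugs, and from 0.9746 to 1.417 for the lung excess of Fkbp5 with desisobutyryl ciclesonide. Genes called with that drug ran from 2564 (without its replicate 3) to 4661 in lung and from 295 to 836 in liver, where leaving out vehicle replicate 2, 3 or 4 (358, 295 and 374) or drug replicate 2, 3 or 4 (409, 379 and 322) cut the count by over 1.5 times. DESeq2 called 1191 genes there and 967 genes in the tissue difference for that drug, against 621 and 571 by edgeR.

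The sign changes were these. Nr3c1 with dexamethasone in liver was -0.0702 with upper-quartile scaling and -0.1895 with library size alone, and Nr3c2 was -0.09782 and -0.1974. Hsd11b2 with desisobutyryl ciclesonide in lung was -0.0001665 and -0.08248 with those scalings and -0.03144 with the replicate block across treatments. Hsd11b1 between the drugs in lung was 0.04784 with upper-quartile scaling and 0.003233 without the filter. For Nr3c1, the tissue difference was 0.0907 for dexamethasone and -0.01389 for desisobutyryl ciclesonide with library size alone, and -0.03405 for the latter without the filter. For Nr3c2 it was 0.008571 for desisobutyryl ciclesonide without lung dexamethasone replicates 3 and 4. With 1 library left out, the ranges of these results were -0.07894 to 0.1417, -0.1341 to 0.12, -0.08689 to 0.1233, -0.1465 to 0.1451, -0.1687 to 0.04495, -0.04062 to 0.1112 and -0.1706 to 0.1848, in the order named. Nr3c1 with dexamethasone in lung ran from -0.06005 to 0.01354, and Hsd11b1 with desisobutyryl ciclesonide in liver from -0.2578 to 0.1672.

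With lung and liver paired as a replicate block, the lung excess of Fkbp5 with desisobutyryl ciclesonide was 1.116, and no other member's call changed. Within a tissue the labels do not say whether equal numbers in different treatments share anything. There 6 of 12 correlations in lung (r from -0.257 to 0.262) and 1 of 12 in liver (r from -0.116 to 0.12) exceeded 0.1. In lung and liver, 4 and 3 of 12 libraries were nearest to their own number. A shared litter or batch by number was not tested. With the replicate block across treatments, the lung Hsd11b1 change with desisobutyryl ciclesonide was 0.5552 and lost its call (adjusted p = 0.0617).

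Scaling by library size moved the share of calls that were higher from 48.8% to 32.8% for desisobutyryl ciclesonide in lung, from 47.5% to 29.4% for dexamethasone and from 46.2% to 35.5% for desisobutyryl ciclesonide in liver, from 51.5% to 67.3% between the drugs in liver, from 52.4% to 86.2% between tissues, and from 48.7% to 63.5% for the tissue difference of dexamethasone; upper-quartile scaling gave 37.4% and 34.4% for the drugs in liver. Depth limits Nr3c2 (48 to 194 counts a library) and Hsd11b2 in liver (0 to 21 counts).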
